A study of Homo sapiens with 24 samples.

Results

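The Hippo pathway ends in YAP1 and in TAZ, encoded by WWTR1, a pair of coactivators that do not bind DNA themselves. When LATS kinases phosphorylate them they are held in the cytoplasm or degraded. When they are not phosphorylated they enter the nucleus, bind TEAD factors and raise the transcription of genes such as CTGF, CYR61 and ANKRD1, and of AMOTL2, AJUBA and LATS2, whose products act back on the pathway. The mRNA level of a coactivator therefore does not report its activity, and mRNA was the quantity measured here. The 10 genes described are YAP1, WWTR1, TEAD1, TEAD4, ANKRD1, CTGF, CYR61, AMOTL2, AJUBA and LATS2, out of 26475 genes in the files. They were chosen by pathway and by a measured value, because ANKRD1 ranked first of 14452 tested genes between the 2 RNAi constructs in 786-M1A cells. ANKRD1 had an F statistic of 719 in that ranking, and ABI3BP, which came next, had 364. All 10 genes passed the filter on low counts in each comparison. CTGF and CYR61 carry the current symbols CCN2 and CCN1.

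RNA was sequenced from 2 human lines of clear cell renal cell carcinoma (ccRCC), with 4 replicates for each of 3 constructs in each line, 24 libraries in all. 786-M1A is a metastatic line that was derived from 786-O, and OS-LM1 one from OS-RC2. Both carry a mutant VHL gene. PAX8, a transcription factor of the renal lineage, was targeted by the RNAi constructs shPAX8-1 and shPAX8-2, and the remaining construct, sgNTC18, is a non-targeting guide RNA. The study's shRNA plasmids are inducible by doxycycline, and the length of induction before RNA extraction is not given in the sources used here. sgNTC18 is not an RNAi construct, so PAX8 depletion cannot be told apart from the kind of vector or from the experiment in any comparison with sgNTC18. The comparison of shPAX8-1 with shPAX8-2 is free of the difference in the kind of vector. Whether libraries of these constructs were made in the same experiment is not given in the sources used here. The labels do not say that replicates were separate cultures, so the p-values measure the spread between these libraries.

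The guide strands of both constructs are printed because the results turn on how the constructs differ. Capitals mark bases 2 to 8 from the 5′ end, the seed.
shPAX8-1: tGTGAGTCaatgcttagtcggc
shPAX8-2: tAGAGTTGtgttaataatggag
In GRCh38, shPAX8-1 pairs over its 22 bases with chr2:113241690-113241711 (minus strand) in PAX8. This site is exonic in 10 of 14 annotated PAX8 transcripts and coding in 8 of them. shPAX8-2 pairs over its 22 bases with chr2:113218122-113218143 (minus strand), which is exonic in 7 transcripts and in the 3′ untranslated region in all 7. The letters complementary to the shPAX8-1 seed, GACTCAC, occur in the 3′ untranslated region of 0 of the 10 members and of 6.81% of 18742 genes. Those complementary to the shPAX8-2 seed, CAACTCT, occur in 1 member and in 10.4% of genes. That member is TEAD1, with 3 occurrences in 7518 bases. Such a match is a description of the letters and not a site of action.

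TEAD factors recognise GGAATG and its reverse complement CATTCC. The 250 bases before the start were searched on both strands in the RefSeq promoter table for GRCh38, which holds 7 of the 10 members, with 10 promoters. No entry was found for TEAD1, TEAD4 or CCN1. At least 1 match lay in 5 of the 10 member promoters and in 11.9% of 35116 promoters. At least 2 lay in 2 member promoters and 0.94% of promoters, and at least 3 in 1 member promoter and 0.0826% of promoters. The 2 members with more than 1 match were CTGF and ANKRD1, and their promoters are printed with the matches in capitals. The first is chr6:131951373-131951622 (minus strand), with matches 169, 104 and 95 bases before the start. The second is chr10:90921088-90921337 (minus strand), with matches 220 and 128 bases before the start.
CTGF: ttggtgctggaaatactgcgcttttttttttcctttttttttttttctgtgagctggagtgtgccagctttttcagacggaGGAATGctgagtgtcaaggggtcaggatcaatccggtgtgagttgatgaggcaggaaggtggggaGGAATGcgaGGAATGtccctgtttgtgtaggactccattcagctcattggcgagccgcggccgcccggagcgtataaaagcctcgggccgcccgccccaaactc
ANKRD1: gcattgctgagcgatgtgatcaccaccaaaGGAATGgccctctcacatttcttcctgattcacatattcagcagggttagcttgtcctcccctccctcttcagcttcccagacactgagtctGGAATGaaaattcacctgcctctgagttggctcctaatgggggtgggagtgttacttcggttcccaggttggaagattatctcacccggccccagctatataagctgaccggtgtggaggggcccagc
YAP1, AMOTL2 and AJUBA had 1 match each, and WWTR1 and LATS2 had none in this window. AMOTL2 and AJUBA each have another listed start, with 0 matches before it. The pattern TGANTCA, in which N is any base, was searched as a loose form of the AP-1 site. It occurred in 1 member promoter, that of ANKRD1, and in 6.57% of promoters. In ANKRD1 the letters were TGATTCA, clear of the TEAD matches, and they are not shown to be an AP-1 site.

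The libraries held 11634419 to 52059375 expected counts each. In bulk RNA a lower level in each cell and fewer cells with the transcript cannot be told apart. PAX8 was at 291 to 393 CPM (counts scaled to library size by the TMM method of edgeR over all 24 libraries) in 786-M1A with sgNTC18, at 40.0 to 45.5 CPM with shPAX8-2 and at 14.8 to 22.9 CPM with shPAX8-1. In OS-LM1 it was at 245 to 279 CPM, at 63.7 to 96.99 CPM and at 59.8 to 89.1 CPM in that order, so the constructs left unequal amounts of PAX8 mRNA in 786-M1A, and in OS-LM1 their ranges overlapped. Renal and ccRCC markers were detected, except CA9 in some libraries, where it was listed at 0 TPM (transcript abundance corrected for length). Of the leukocyte markers PTPRC and CD3E stayed at or below 0.36 TPM. CD14 moved with the constructs, from 0.21 to 0.58 TPM with sgNTC18 to 1.90 to 2.47 TPM with shPAX8-2 and 3.15 to 4.51 TPM with shPAX8-1 in OS-LM1, and from 0.27 to 0.43 TPM to 1.06 to 1.33 TPM and 1.21 to 2.95 TPM in 786-M1A. The endothelial markers PECAM1, CDH5 and KDR stayed at or below 0.30 TPM. Of the fibroblast markers DCN stayed at or below 0.89 TPM, and LUM reached 6.73 TPM. The 4 fibroblast markers, of which PDGFRB made up most in 786-M1A, summed there to 182.6 to 230.6 TPM with sgNTC18, 201.8 to 272 TPM with shPAX8-2 and 60.8 to 126.5 TPM with shPAX8-1, the lowest group. In OS-LM1 the sum was 0.49 to 0.70 TPM with sgNTC18, 1.23 to 1.39 TPM with shPAX8-2 and 2.23 to 3.41 TPM with shPAX8-1. The part of these markers in the results was not tested. Within 786-M1A shPAX8-1, replicates 1 and 2 stood apart from replicates 3 and 4, with a chi-square per gene of 44.7 to 77.4 between the pairs against 14.1 and 3.73 within them. Replicates of other groups differed too, by up to 89.5 in OS-LM1 shPAX8-2, 43.8 in OS-LM1 sgNTC18 and 34.3 in OS-LM1 shPAX8-1. The highest values were 26 in 786-M1A sgNTC18 and 19.2 in 786-M1A shPAX8-2. In 786-M1A shPAX8-1 the members were, in replicates 3 and 4, at 0.694 times (CYR61) to 1.24 times (YAP1) their means in replicates 1 and 2.

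ANKRD1 encodes an ankyrin repeat protein of muscle and other cells that is found in the nucleus and at the sarcomere, and its transcript is a standard readout of YAP and TAZ. In 786-M1A it was at 8.05, 7.52, 8.38 and 8.34 CPM with sgNTC18. With shPAX8-2 it was at 28.2, 30.4, 33.6 and 27.8 CPM. With shPAX8-1 it was at 188, 217, 228 and 232 CPM, so the 3 groups were separate and every library with shPAX8-1 lay above every other library of the series. In OS-LM1 it was at 21.6, 13.9, 17.9 and 17.9 CPM with sgNTC18. With shPAX8-2 it was at 18.9, 21.2, 18.8 and 18.9 CPM. With shPAX8-1 it was at 8.35, 7.40, 8.91 and 8.19 CPM. The shPAX8-1 libraries were thus the highest of 786-M1A and the lowest of OS-LM1, where they lay within the range from 7.40 to 8.91 CPM that also covers the sgNTC18 libraries of 786-M1A.

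CTGF encodes a secreted matricellular protein. In 786-M1A it was at 34.7, 36.3, 40.7 and 37.6 CPM with sgNTC18. With shPAX8-2 it was at 145, 131, 159 and 160.1 CPM, and with shPAX8-1 at 230.3, 275, 190.5 and 199.9 CPM. These 3 groups did not overlap. In OS-LM1 it was at 49.4, 43.9, 59.7 and 52.3 CPM with sgNTC18. With shPAX8-2 it was at 2980, 3072, 2747 and 3067 CPM, and with shPAX8-1 at 1085, 984, 839 and 974 CPM. The 6 groups of CTGF were separate in their ranges, and the share of all genes separated in this way was not computed. From the highest, their order was OS-LM1 shPAX8-2, OS-LM1 shPAX8-1, 786-M1A shPAX8-1, 786-M1A shPAX8-2, OS-LM1 sgNTC18 and 786-M1A sgNTC18.

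CYR61 encodes a secreted protein of the same family as CTGF. In 786-M1A it was at 214, 274, 291 and 229 CPM with sgNTC18. With shPAX8-2 it was at 723, 735, 766 and 919 CPM, and with shPAX8-1 at 993, 1060.3, 712 and 712 CPM. The groups of both constructs overlapped and lay above sgNTC18. In OS-LM1 it was at 1194, 863, 1089 and 896 CPM with sgNTC18. With shPAX8-2 it was at 1724, 1745, 1984 and 1873 CPM, and with shPAX8-1 at 1053, 1090.1, 962 and 1093 CPM. Here the shPAX8-2 libraries lay above all others and those with shPAX8-1 lay inside the range of sgNTC18.

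**Figure D1:**
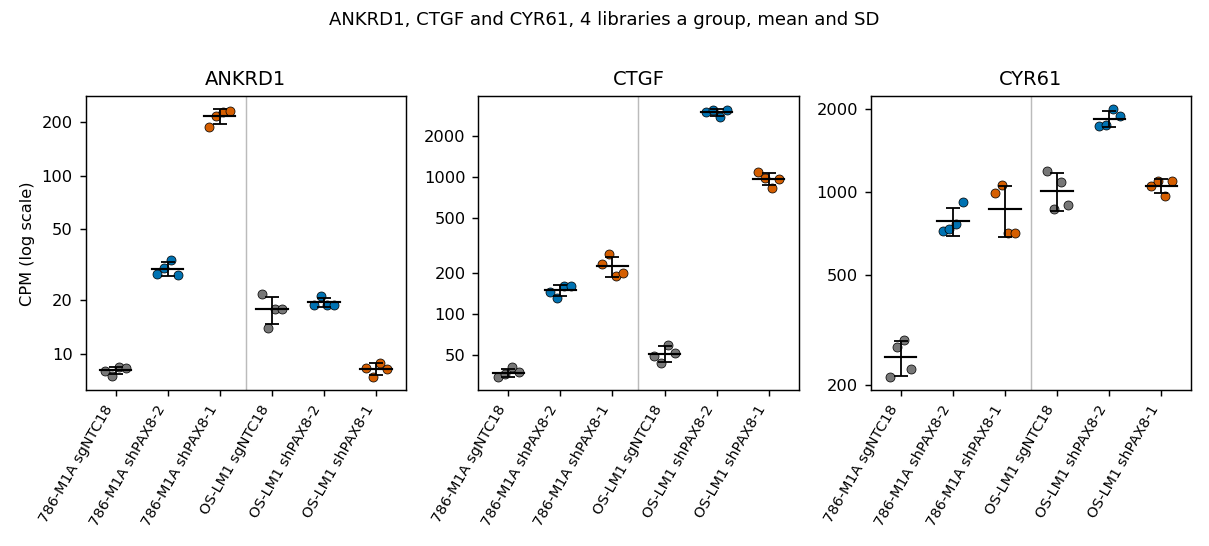
CPM of ANKRD1, CTGF and CYR61 (log axes) in each library of the 6 groups of construct and line; points are libraries, bars the mean and SD of 4. ANKRD1 is highest with shPAX8-1 in 786-M1A (mean 216 CPM) and low with it in OS-LM1 (mean 8.21 CPM), and CTGF is highest with shPAX8-2 in OS-LM1 (mean 2966 CPM).

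Whether the members differed between the constructs was tested in OS-LM1, whose libraries took no part in choosing ANKRD1. The members as a set were, however, chosen with earlier results of these data known. In edgeR's quasi-likelihood test with Benjamini-Hochberg adjustment over 15049 genes, 6 of the 10 members were lower with shPAX8-1 than with shPAX8-2 at an adjusted p under 0.05 and 0 were higher. Over all genes 16.7% were lower and 12.4% were higher. DESeq2 also called 0 members higher, and 0 were higher at an unadjusted p under 0.05. The median of the members was -0.45 on the log2 scale, and that of all genes tested was -0.03.

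The targets ANKRD1, CTGF and CYR61 were among the 6. CTGF was lower with shPAX8-1 at a log2 fold change of -1.64 ± 0.10 (SE, n = 4 a group; adjusted p = 6.3e-10, edgeR). ANKRD1 was lower by -1.27 ± 0.12 (adjusted p = 3.2e-07, edgeR) and CYR61 by -0.83 ± 0.10 (adjusted p = 3e-06, edgeR). In each of these 3 genes the 4 libraries of one construct lay apart from the 4 of the other. The same held for LATS2, AMOTL2 and TEAD4, and for TEAD1, which did not pass the test. The share of all genes separated in this way was not computed for this comparison. LATS2, a kinase that phosphorylates YAP and TAZ, was lower by -0.72 ± 0.09 (adjusted p = 1.5e-05, edgeR), and AMOTL2, an angiomotin that binds YAP at junctions, by -0.50 ± 0.09 (adjusted p = 0.00046, edgeR). The transcription factor TEAD4 was lower by -0.40 ± 0.11 (adjusted p = 0.0095, edgeR), a call that was lost without replicate 3 of shPAX8-2 (-0.29, adjusted p = 0.061) or of shPAX8-1 (-0.32, adjusted p = 0.052).

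The coactivators themselves did not pass the test. YAP1 differed by 0.10 with a 95% interval of -0.07 to 0.27, and WWTR1 by 0.06 with an interval of -0.11 to 0.24, both on the log2 scale. TEAD1 differed by -0.17 (-0.32 to -0.01; adjusted p = 0.094, edgeR), and passed when each library's trend with GC content was removed (-0.23, adjusted p = 0.012). The LIM protein AJUBA, an inhibitor of LATS kinases, differed by 0.04 (-0.17 to 0.24). PAX8 differed by -0.05 (-0.31 to 0.21).

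The same contrast in 786-M1A is the one that chose ANKRD1, and its values are given with no test. ANKRD1 with shPAX8-1 exceeded its level with shPAX8-2 by 2.85 on the log2 scale, or 7.22-fold, which is opposite in sign to OS-LM1. Of the other members, CTGF was higher by 0.59, TEAD1 by 0.50, WWTR1 by 0.24, YAP1 by 0.20 and CYR61 by 0.15. AMOTL2 was at -0.35, TEAD4 at -0.34, LATS2 at -0.31 and AJUBA at -0.14. Apart from ANKRD1, the CPM ranges of the constructs did not overlap for 4 of 9 members, WWTR1, TEAD1, CTGF and AMOTL2, and over all genes they did not for 36.3%. Log2 fold changes of this contrast ran with GC content across genes (Spearman's rho -0.555 over genes, which are not independent). With each library's GC trend removed ANKRD1 was at 2.60, CTGF at 0.72 and TEAD1 at 0.28. The other 7 members then lay between -0.15 and 0.13. With replicates 3 and 4 of shPAX8-1 alone, ANKRD1 was at 2.94, CTGF at 0.39, YAP1 at 0.34 and CYR61 at -0.15, and TEAD4 was at -0.61, AMOTL2 at -0.52 and AJUBA at -0.34. With replicates 1 and 2 alone, ANKRD1 was at 2.76, CTGF at 0.77, CYR61 at 0.39, YAP1 at 0.04, AJUBA at 0.02, TEAD4 at -0.12 and AMOTL2 at -0.19.

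**Figure D2:**
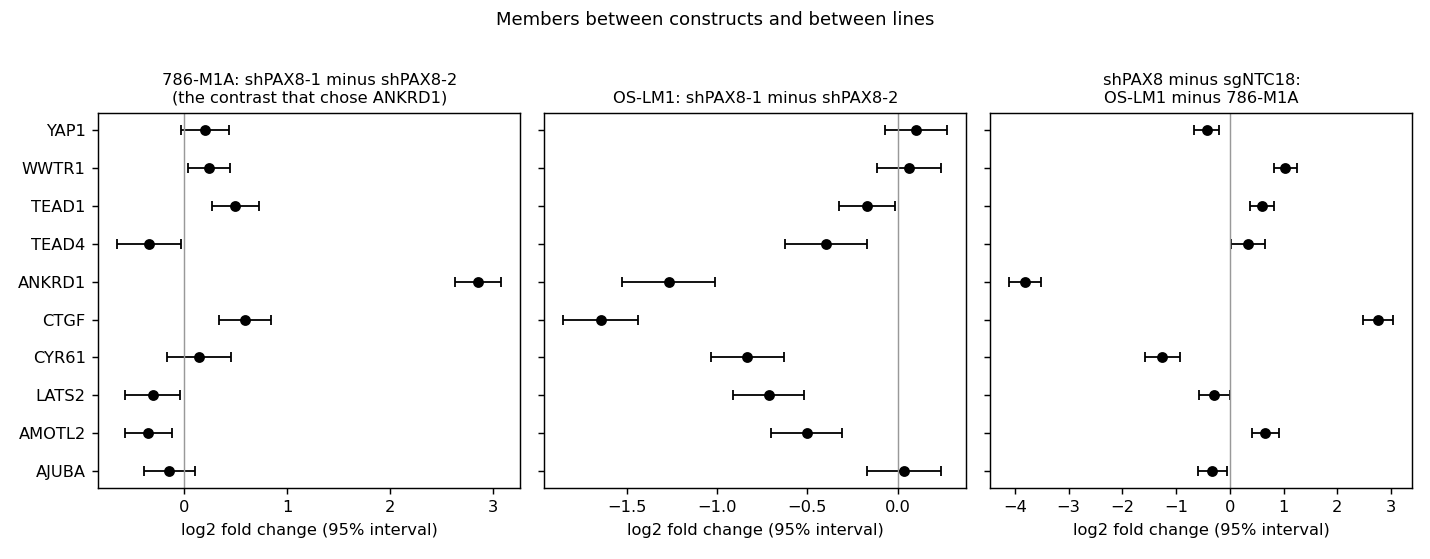
Log2 fold change of each member (x axis, with its 95% interval) between the RNAi constructs in 786-M1A and in OS-LM1, and the difference between the lines in shPAX8 against sgNTC18. ANKRD1 lies at 2.85 in the left panel, which shows the contrast that chose it, and at -1.27 in the middle panel.

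In OS-LM1 each construct was compared with sgNTC18. The 2 comparisons share their control libraries, so their values are given side by side. With shPAX8-1, 5 of 10 members rose and 3 fell, against 35.6% and 35.8% of all genes. With shPAX8-2, 6 rose and 2 fell, against 34.3% and 34.1% of all genes. The median log2 fold change of the members was 0.21 with shPAX8-1 and 0.43 with shPAX8-2, and that of all genes was -0.01 in both.

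CTGF rose 18.6-fold with shPAX8-1 (log2 fold change 4.22 ± 0.11 SE; adjusted p = 1.1e-16, edgeR). With shPAX8-2 it rose 58.1-fold (5.86 ± 0.12 SE; adjusted p = 7.3e-18, edgeR), and it was the third gene of 15049 by p in that comparison. CYR61 rose with shPAX8-2 (0.86 ± 0.10; adjusted p = 1.7e-07) and differed by 0.03 with shPAX8-1 (-0.17 to 0.23). ANKRD1 fell with shPAX8-1 (-1.14 ± 0.12; adjusted p = 8.2e-08) and differed by 0.13 with shPAX8-2 (-0.11 to 0.38). Each of the 3 targets thus gave another pattern against sgNTC18, and the first rose with both constructs.

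LATS2 was at 81.6, 63.5, 70.1 and 64.6 CPM in OS-LM1 with sgNTC18, at 96.5, 116, 106 and 99.0 CPM with shPAX8-1 and at 169, 164, 188 and 151 CPM with shPAX8-2, in 3 separate groups. LATS2 rose with both constructs, by 0.55 ± 0.09 with shPAX8-1 (adjusted p = 3.5e-05, edgeR) and by 1.27 ± 0.10 with shPAX8-2 (adjusted p = 7.6e-10). AMOTL2 was at 175, 131, 143 and 137 CPM with sgNTC18, at 158, 195, 161 and 165 CPM with shPAX8-1 and at 238, 239, 241 and 224 CPM with shPAX8-2, and the last group lay above the others. AMOTL2 rose with shPAX8-2 (0.69 ± 0.09; adjusted p = 2.2e-06, edgeR). With shPAX8-1 AMOTL2 was at 0.19 (-0.01 to 0.38; adjusted p = 0.079), and it passed without sgNTC18 replicate 1 (0.31, adjusted p = 0.0076) or with the GC trend removed (0.53, adjusted p = 2.8e-05). AJUBA was at 78.6 to 94.9 CPM with sgNTC18, above the 52.6 to 63.0 CPM with shPAX8-1 and the 49.6 to 65.3 CPM with shPAX8-2. It fell with both, by -0.60 ± 0.10 (adjusted p = 1.6e-05, edgeR) and -0.64 ± 0.10 (adjusted p = 9.3e-06) on the log2 scale.

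WWTR1 rose with both constructs in OS-LM1, by 0.44 ± 0.08 with shPAX8-1 (adjusted p = 0.00012, edgeR) and by 0.38 ± 0.08 with shPAX8-2 (adjusted p = 0.00059). It was at 482, 437, 511 and 480.4 CPM with sgNTC18, at 682, 637, 678 and 639 CPM with shPAX8-1 and at 617, 701, 588 and 565 CPM with shPAX8-2, so both shPAX8 groups lay above sgNTC18. With the GC trend removed the rises were 0.20 and 0.19 (adjusted p = 0.023 and 0.027). YAP1 rose with shPAX8-1, by 0.24 ± 0.08 (adjusted p = 0.014, edgeR), which was lost without shPAX8-1 replicate 2 (0.20, adjusted p = 0.053) or replicate 3 (0.19, adjusted p = 0.057) and with the GC trend removed (0.04, adjusted p = 0.61). With shPAX8-2 YAP1 was at 0.14 (-0.04 to 0.31).

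TEAD1 was at 155 to 171 CPM with sgNTC18, 194 to 214 CPM with shPAX8-1 and 217 to 237 CPM with shPAX8-2, with no overlap. TEAD1 rose by 0.32 ± 0.07 with shPAX8-1 (adjusted p = 0.00081, edgeR) and by 0.49 ± 0.07 with shPAX8-2 (adjusted p = 9.5e-06). The first was lost with the GC trend removed (0.10, adjusted p = 0.17). TEAD4 was at 34.3 to 42.5 CPM with sgNTC18, 22.8 to 28.0 CPM with shPAX8-1 and 28.2 to 38.3 CPM with shPAX8-2, and the last group overlapped sgNTC18. TEAD4 fell by -0.65 ± 0.11 with shPAX8-1 (adjusted p = 2.1e-05, edgeR; -0.20 with the GC trend removed) and by -0.26 ± 0.11 with shPAX8-2 (adjusted p = 0.038). The second was lost with the replicate block (adjusted p = 0.064), in 1 fit of all 24 libraries (adjusted p = 0.069), without sgNTC18 replicate 1, 2 or 3 (adjusted p = 0.088, 0.062 and 0.10) and without shPAX8-2 replicate 1 or 2 (adjusted p = 0.14 and 0.094), and it took the other sign with the GC trend removed (0.07, adjusted p = 0.47).

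In 786-M1A the mean of both constructs was compared with sgNTC18, a contrast at right angles to the one that chose ANKRD1 but made of the same libraries. ANKRD1 is therefore given with no test, at 3.34 on the log2 scale over the mean of the constructs, 27.1-fold higher with shPAX8-1 and 3.76-fold higher with shPAX8-2. Of the other 9 members 4 rose and 3 fell, against 35.7% and 34.7% of all genes. The median of these 9 was -0.17, and that of all genes 0.04.

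CTGF rose by 2.31 ± 0.12, or 4.96-fold (adjusted p = 2.7e-10, edgeR), and CYR61 by 1.73 ± 0.14, or 3.33-fold (adjusted p = 3.1e-08, edgeR). LATS2 rose by 1.23 ± 0.12, or 2.35-fold (adjusted p = 2e-07, edgeR). It was at 31.6, 33.5, 36.2 and 34.0 CPM with sgNTC18, at 78.2, 64.5, 74.7 and 64.2 CPM with shPAX8-1 and at 100.2, 100.6, 74.7 and 72.2 CPM with shPAX8-2. Both shPAX8 groups of LATS2 lay above sgNTC18 and overlapped each other.

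YAP1 rose by 0.65 ± 0.10 (adjusted p = 2.7e-05, edgeR) while WWTR1 fell by -0.60 ± 0.08 (adjusted p = 8.4e-06). YAP1 was at 106, 85.5, 95.9 and 82.1 CPM with sgNTC18, at 134, 138, 169.6 and 169 CPM with shPAX8-1 and at 132, 129, 142 and 131 CPM with shPAX8-2. WWTR1 was at 279, 223, 257 and 259 CPM with sgNTC18, at 169, 177, 188 and 188 CPM with shPAX8-1 and at 154, 169, 147 and 141 CPM with shPAX8-2. The shPAX8 libraries were above those with sgNTC18 in the first gene and below them in the second.

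TEAD4 fell by -0.76 ± 0.12 (adjusted p = 3.7e-05, edgeR), or by -0.45 with the GC trend removed. It was at 28.7, 32.3, 33.7 and 29.5 CPM with sgNTC18, at 20.7, 16.6, 14.1 and 12.6 CPM with shPAX8-1 and at 21.2, 19.7, 18.4 and 21.9 CPM with shPAX8-2, with sgNTC18 above both. AJUBA, at 57.8 to 67.5 CPM with sgNTC18, 42.5 to 57.8 CPM with shPAX8-1 and 48.3 to 58.3 CPM with shPAX8-2, fell by -0.27 ± 0.10 (adjusted p = 0.024, edgeR), or by -0.15 with the GC trend removed, a call lost without sgNTC18 replicate 2 (adjusted p = 0.070) or 3 (adjusted p = 0.066). By construct, with no test, TEAD1 was at 0.08 with shPAX8-1 and -0.41 with shPAX8-2, and AMOTL2 at -0.37 and -0.02 in that order. Over the mean of the constructs TEAD1 was at -0.17 (-0.36 to 0.03) and AMOTL2 at -0.19 (-0.39 to -0.0020; adjusted p = 0.066). TEAD1 passed with the GC trend removed (-0.36, adjusted p = 1.7e-05), without a low-count filter (adjusted p = 0.040), in 1 fit of all libraries (adjusted p = 0.028) and with only replicates 1 and 2 of shPAX8-1 (adjusted p = 0.014). AMOTL2 passed without sgNTC18 replicate 1 (adjusted p = 0.028) or shPAX8-1 replicate 1 (adjusted p = 0.030) or 2 (adjusted p = 0.046), with only replicates 3 and 4 of shPAX8-1 (adjusted p = 0.0028), without a low-count filter (adjusted p = 0.032) and in 1 fit of all libraries (adjusted p = 0.029), and its sign turned with the GC trend removed (0.05, adjusted p = 0.50).

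**Figure D3:**
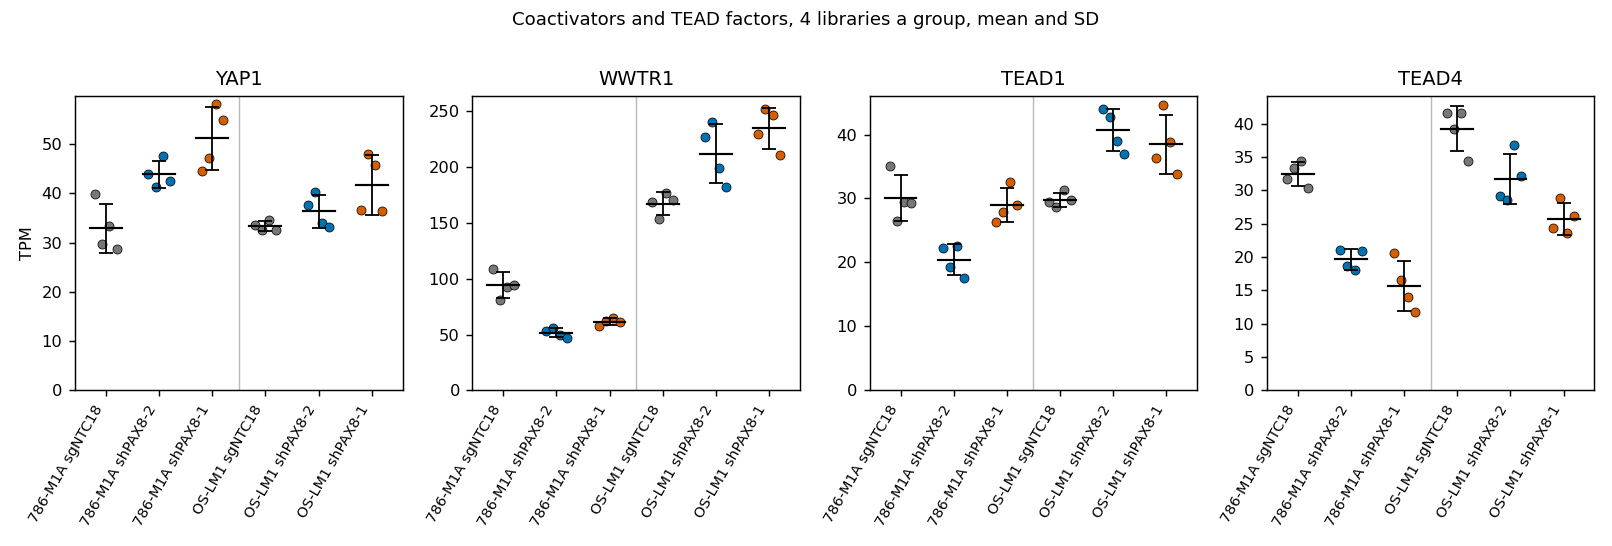
TPM, a unit that corrects for transcript length, of YAP1, WWTR1, TEAD1 and TEAD4 in each library of the 6 groups; points are libraries, bars the mean and SD of 4, and axes start at 0. WWTR1 lies below its sgNTC18 level with shPAX8 in 786-M1A (means 61.6 and 51.6 against 94.2 TPM) and above it in OS-LM1 (means 235 and 212 against 167 TPM).

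Whether the difference between shPAX8 and sgNTC18 was the same in both lines was tested by an interaction term over all 24 libraries. Of the 9 members other than ANKRD1, 7 differed, against 58.7% of 15665 genes. CTGF rose more in OS-LM1, by 2.76 ± 0.14 on the log2 scale (adjusted p = 5.7e-15, edgeR), and CYR61 rose less there, by a difference of -1.26 ± 0.16 (adjusted p = 2e-07). ANKRD1, given with no test, differed by -3.81 (-4.10 to -3.52). The 3 target genes thus did not share 1 direction of difference between the lines.

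WWTR1 differed by 1.03 ± 0.10 (adjusted p = 4.5e-09, edgeR), which follows its fall in 786-M1A and its rise in OS-LM1, and TEAD1 by 0.60 ± 0.11 (adjusted p = 2.7e-05). AMOTL2 differed by 0.66 ± 0.12 (adjusted p = 4.9e-05, edgeR) and YAP1 by -0.43 ± 0.11 (adjusted p = 0.0023). LATS2 was at -0.29 (-0.58 to -0.01; adjusted p = 0.075, edgeR) and passed without 786-M1A shPAX8-2 replicate 3 (adjusted p = 0.026) or 4 (adjusted p = 0.037) and with only replicates 1 and 2 of 786-M1A shPAX8-1 (adjusted p = 0.038). TEAD4 was at 0.34 (0.02 to 0.66; adjusted p = 0.063, edgeR) and passed without OS-LM1 shPAX8-2 replicate 1 (adjusted p = 0.043), OS-LM1 shPAX8-1 replicate 3 (adjusted p = 0.050) or 786-M1A shPAX8-1 replicate 1 (adjusted p = 0.013), with only replicates 3 and 4 of 786-M1A shPAX8-1 (adjusted p = 0.0067) and with the GC trend removed (adjusted p = 0.00052).

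AJUBA differed by -0.32 ± 0.13 (adjusted p = 0.037, edgeR). That call was lost when any of 11 libraries was left out, namely sgNTC18 replicates 1 and 4, shPAX8-2 replicate 1 and shPAX8-1 replicates 1 and 2 of 786-M1A, and sgNTC18 replicates 1 and 3, shPAX8-2 replicates 2 and 4 and shPAX8-1 replicates 1 and 4 of OS-LM1. The adjusted p was then between 0.051 and 0.090, and it was 0.064 without a low-count filter and 0.060 with only replicates 3 and 4 of 786-M1A shPAX8-1.

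**Figure D4:**
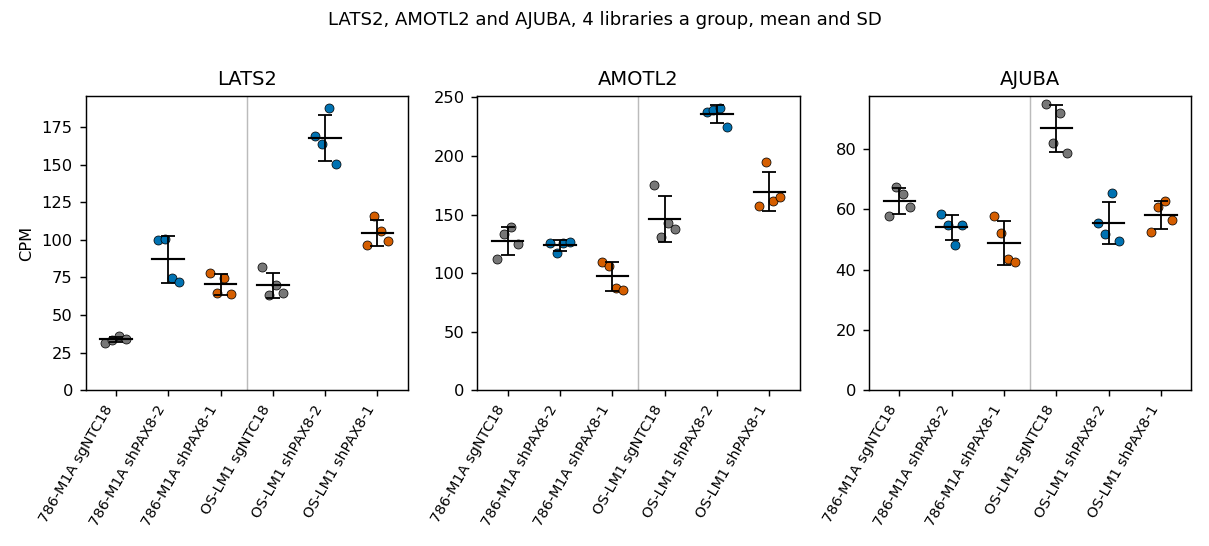
CPM of LATS2, AMOTL2 and AJUBA in each library of the 6 groups; points are libraries, bars the mean and SD of 4, and axes start at 0. LATS2 and AMOTL2 are highest with shPAX8-2 in OS-LM1 (means 168 and 236 CPM), and AJUBA is highest with sgNTC18 there (mean 87.0 CPM).

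Between the lines with sgNTC18, 7 of the 10 members were higher in OS-LM1 and 0 were lower, against 35.4% and 35.1% of 14967 genes. No member was lower at an unadjusted p under 0.05 in edgeR, and DESeq2 called 0 lower. CYR61 was 3.98-fold higher (log2 fold change 1.99 ± 0.11 SE; adjusted p = 8.5e-11, edgeR), ANKRD1 2.18-fold (1.13 ± 0.12; adjusted p = 2.5e-07), LATS2 2.05-fold (1.04 ± 0.09; adjusted p = 8.1e-09) and WWTR1 1.87-fold (0.90 ± 0.07; adjusted p = 8.3e-09). AJUBA was higher by 0.46 ± 0.08, CTGF by 0.45 ± 0.09 and TEAD4 by 0.34 ± 0.09, with adjusted p of 5.2e-05, 0.00026 and 0.0023 in edgeR. YAP1 was at 0.09 (-0.08 to 0.26) and TEAD1 at 0.06 (-0.09 to 0.22). With the GC trend removed TEAD1 was lower in OS-LM1 (-0.17, adjusted p = 0.016) and TEAD4 was higher by 0.67. AMOTL2 was at 0.19 (adjusted p = 0.063, edgeR) and passed without 786-M1A sgNTC18 replicate 3 (adjusted p = 0.042) or OS-LM1 sgNTC18 replicate 2 (adjusted p = 0.032), without a low-count filter (adjusted p = 0.041) and with the GC trend removed (adjusted p = 0.00014).

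Levels of the coactivators were compared per transcript length, with no test. WWTR1 stood above YAP1 in every library, with a TPM ratio of 2.88 ± 0.28 (SD, n = 4) in 786-M1A with sgNTC18, 1.18 ± 0.14 with shPAX8-2 and 1.21 ± 0.11 with shPAX8-1. In OS-LM1 the ratio was 5.02 ± 0.22, 5.81 ± 0.24 and 5.67 ± 0.45 in that order. TEAD1 and TEAD4 were at a ratio of 0.93 ± 0.14 in 786-M1A with sgNTC18 and 0.76 ± 0.07 in OS-LM1 with sgNTC18. With shPAX8-1 the TEAD ratio was 1.94 ± 0.56 and 1.5 ± 0.15, and with shPAX8-2 it was 1.05 ± 0.17 and 1.3 ± 0.23. These ratios are not corrected for GC content, 43.0% in TEAD1 and 60.4% in TEAD4. Without the GC trend, log2 fold changes of TEAD1 and TEAD4 against sgNTC18 in 786-M1A were -0.22 and -0.39 with shPAX8-1 (0.08 and -0.93 before). With shPAX8-2 they were -0.50 and -0.51 (-0.41 and -0.59 before). In OS-LM1 they were 0.10 and -0.20 with shPAX8-1 (0.32 and -0.65 before). With shPAX8-2 they were 0.33 and 0.07 there (0.49 and -0.26 before). The antisense gene WWTR1-AS1 had at most 27.8 expected counts in a library, and whether counting used the strand is not given in the sources used here.

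TEAD2, another of the 4 TEAD genes, separated the lines. It had 0 to 1 expected counts in each 786-M1A library, 900 to 992 in OS-LM1 with sgNTC18, 347 to 484 with shPAX8-1 and 342 to 1382 with shPAX8-2, or 14.2 to 24.65 TPM over the OS-LM1 libraries. It was lower with shPAX8-1 than with shPAX8-2 in OS-LM1 (-0.55 ± 0.10; adjusted p = 0.00028, edgeR). TEAD3 was expressed in both lines at 5.26 to 11.8 TPM and was slightly lower in OS-LM1 with sgNTC18 (-0.28 ± 0.10; adjusted p = 0.025, edgeR). VGLL4, a cofactor that competes with YAP for TEAD, rose in OS-LM1 by 1.33 ± 0.10 with shPAX8-1 (adjusted p = 5.6e-10, edgeR) and 1.64 ± 0.10 with shPAX8-2 (adjusted p = 3.9e-11), and in 786-M1A by 0.37 ± 0.11 (adjusted p = 0.0079). It was lower with shPAX8-1 than with shPAX8-2 in OS-LM1 by -0.31 ± 0.10 (adjusted p = 0.023, edgeR), and its rise was larger in OS-LM1 than in 786-M1A by 1.15 ± 0.14 (adjusted p = 1.3e-07). VGLL1, VGLL2 and VGLL3 did not pass the filter on low counts.

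The core kinase cassette and its regulators were followed in a list of 18 genes, all tested. In OS-LM1 11 rose and 5 fell with shPAX8-1, and 11 rose and 4 fell with shPAX8-2. Over all genes 35.6% rose and 35.8% fell with shPAX8-1, and 34.3% and 34.1% with shPAX8-2. In 786-M1A 9 rose and 3 fell with the mean of the constructs, beside 35.7% and 34.7% of all genes. The median of the list was 0.45, 0.31 and 0.24 in these comparisons. Log2 fold changes ran with GC content across genes, with a Spearman's rho of -0.323, -0.277 and -0.253 in the same order. It was -0.203 between the constructs in OS-LM1, -0.257 between the lines and -0.048 for the interaction. Values with the GC trend removed are not given for this list or for those that follow. LATS1, the other LATS kinase, rose by 1.24 ± 0.10 with either construct in OS-LM1 (adjusted p = 2.2e-09 and 2.5e-09, edgeR) and by 0.77 ± 0.11 in 786-M1A (adjusted p = 2.2e-05). SAV1, the scaffold of the MST kinases, rose by 1.26 ± 0.10 and 0.68 ± 0.10 in OS-LM1 and by 0.85 ± 0.13 in 786-M1A, with adjusted p of 1e-09, 5.7e-06 and 4e-05 in edgeR. NF2, the upstream tumour suppressor merlin, fell in 786-M1A by -1.50 ± 0.09 (adjusted p = 2.9e-09, edgeR) and with shPAX8-1 in OS-LM1 by -0.39 ± 0.09 (adjusted p = 0.00093), and was at 0.00 with shPAX8-2. RASSF1, a scaffold that binds MST kinases, fell in all 3, by -2.79 ± 0.17 and -2.07 ± 0.16 in OS-LM1 and -1.03 ± 0.14 in 786-M1A, with adjusted p of 3e-11, 1.4e-09 and 8.1e-06 in edgeR. The interaction was past the threshold for 11 of the 18, a share near the 58.7% of all genes, with NF2 at 1.33 ± 0.13 (adjusted p = 2.6e-09, edgeR). Between the constructs in OS-LM1, 2 genes of this list were higher with shPAX8-1 and 5 were lower, beside 12.4% and 16.7% of all genes. Between the lines with sgNTC18 6 were higher in OS-LM1 and 4 lower, neither above the 35.4% and 35.1% of all genes. AMOTL1, an angiomotin, was among these 6, at 2.74 ± 0.09 (adjusted p = 2e-14, edgeR), as was the atypical cadherin FAT1 at 2.15 ± 0.07 (adjusted p = 4.4e-14).

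Other genes that YAP and TAZ are known to activate formed a list of 17, of which 16 were tested (FOXF2 was not). PTPN14 is in this list and in the one before. In OS-LM1 9 rose and 4 fell with shPAX8-1 and 10 rose and 4 fell with shPAX8-2, and in 786-M1A 10 rose and 2 fell. The shares of all genes were 35.6% and 35.8%, 34.3% and 34.1%, and 35.7% and 34.7% in the same order. The median log2 fold change was 0.42, 0.49 and 0.60 in that order, beside medians of all genes between -0.01 and 0.04. CCDC80, an extracellular matrix protein, rose by 3.52 ± 0.09 (adjusted p = 3.9e-17, edgeR), 1.61 ± 0.08 (adjusted p = 2e-12) and 2.80 ± 0.12 (adjusted p = 6.6e-11). The ectonucleotidase NT5E rose by 2.22 ± 0.10, 1.26 ± 0.10 and 1.84 ± 0.10, and the ligand TGFB2 by 0.40 ± 0.10, 1.23 ± 0.10 and 2.06 ± 0.11, all past the threshold. FJX1 fell in all 3, by -1.13 ± 0.11, -1.07 ± 0.11 and -0.51 ± 0.13, with adjusted p of 1.2e-08, 3.3e-08 and 0.0019 in edgeR.

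Between the constructs in OS-LM1 this list was split, with 6 genes higher with shPAX8-1, 4 lower and a median of 0.12, beside 12.4% and 16.7% of all genes and their median of -0.03. CCDC80 was higher by 1.91 ± 0.08 (adjusted p = 4e-12, edgeR) and NT5E by 0.96 ± 0.09 (adjusted p = 3.5e-07). The kinase gene NUAK2 was lower by -1.38 ± 0.13 (adjusted p = 1.7e-07, edgeR), TGFB2 by -0.83 ± 0.10 (adjusted p = 6e-06) and IGFBP3 by -0.61 ± 0.08 (adjusted p = 8.3e-06). The interaction was past the threshold for 10 of the 16, a share near the 58.7% of all genes, with 6 below 0 and 4 above, and GADD45A was at 1.69 ± 0.17 (adjusted p = 3.4e-09, edgeR) and the tissue factor gene F3 at -1.82 ± 0.10 (adjusted p = 7.7e-14). Between the lines with sgNTC18 8 were higher in OS-LM1 and 4 lower, beside 35.4% and 35.1% of all genes, with IGFBP3 at 1.71 ± 0.07 (adjusted p = 4.5e-13, edgeR) and NT5E at -2.15 ± 0.09 (adjusted p = 3.5e-13).

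Targets of SRF and genes of the actin cytoskeleton, whose state is known to act on YAP and TAZ, formed a list of 15. In OS-LM1 12 of 15 were lower with shPAX8-1 than with shPAX8-2 and 0 were higher, with a median of -0.56. Over all genes 16.7% were lower and 12.4% higher, with a median of -0.03. DESeq2 likewise called 12 lower and 0 higher, and 0 were higher at an unadjusted p under 0.05. TAGLN was lower by -2.02 ± 0.18 (adjusted p = 1.3e-07, edgeR), SRF itself by -1.15 ± 0.11 (adjusted p = 1.9e-07) and the myosin light chain gene MYL9 by -1.06 ± 0.12 (adjusted p = 3.3e-06). The level of TAGLN was low, at 23 to 46 expected counts with shPAX8-1 and 78 to 339 with shPAX8-2. In 786-M1A, the contrast that chose ANKRD1 is given with no test. There 14 of 14 genes of this list lay below 0, with a median of -0.37, while ANKRD1 was at 2.85. The median of all genes was -0.02 there, and the share of them below 0 was not computed. Log2 fold changes of this contrast ran with GC content (Spearman's rho -0.555), and the list was not corrected for it.

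Against sgNTC18 some genes of this list moved the same way in both lines and others did not. In 786-M1A 3 of 14 rose and 9 fell, beside 35.7% and 34.7% of all genes, with a median of -0.64, and FHL2, a LIM cofactor, fell by -1.96 ± 0.08 (adjusted p = 4.6e-11, edgeR) and the filamin gene FLNA by -1.31 ± 0.13 (adjusted p = 4.7e-07). The tropomyosin gene TPM2 rose there by 2.36 ± 0.15 (adjusted p = 3e-09, edgeR) and ACTA2 by 1.80 ± 0.10 (adjusted p = 9.2e-10). In OS-LM1 5 rose and 5 fell with shPAX8-1, with a median of 0.16, and 9 rose and 3 fell with shPAX8-2, with a median of 0.43. Over all genes 35.6% rose and 35.8% fell with shPAX8-1, and 34.3% and 34.1% with shPAX8-2. FLNA fell there too, by -2.57 ± 0.14 and -1.87 ± 0.14 (adjusted p = 8.2e-12 and 6.9e-10, edgeR), and ACTA2 rose by 1.18 ± 0.11 and 1.74 ± 0.11 (adjusted p = 1.5e-08 and 9.1e-11). The actin gene ACTG1 fell by -1.03 ± 0.09 and -0.62 ± 0.09 in OS-LM1 (adjusted p = 4.3e-09 and 4.3e-06, edgeR) and by -1.21 ± 0.10 in 786-M1A (adjusted p = 5.7e-08). TAGLN fell in OS-LM1 by -3.19 ± 0.18 and -1.17 ± 0.15 (adjusted p = 6.1e-12 and 1.3e-06, edgeR) and was at 0.56 in 786-M1A (adjusted p = 0.14). FHL2 rose in OS-LM1 by 0.71 ± 0.09 (adjusted p = 1.3e-06, edgeR) and 1.06 ± 0.09 (adjusted p = 6.8e-09), and its interaction was 2.88 ± 0.12 (adjusted p = 1.1e-16). The interaction was past the threshold for 14 of 15 genes, 10 above 0 and 4 below, beside 58.7% of all genes. Between the lines with sgNTC18, 5 genes of the 14 tested were higher in OS-LM1 and 3 were lower, beside 35.4% and 35.1% of all genes, TAGLN by 3.21 ± 0.19 (adjusted p = 5.9e-11, edgeR) among the former. With sgNTC18 TAGLN had 18 to 50 expected counts in 786-M1A, a low level, and 371 to 498 in OS-LM1.

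**Figure D5:**
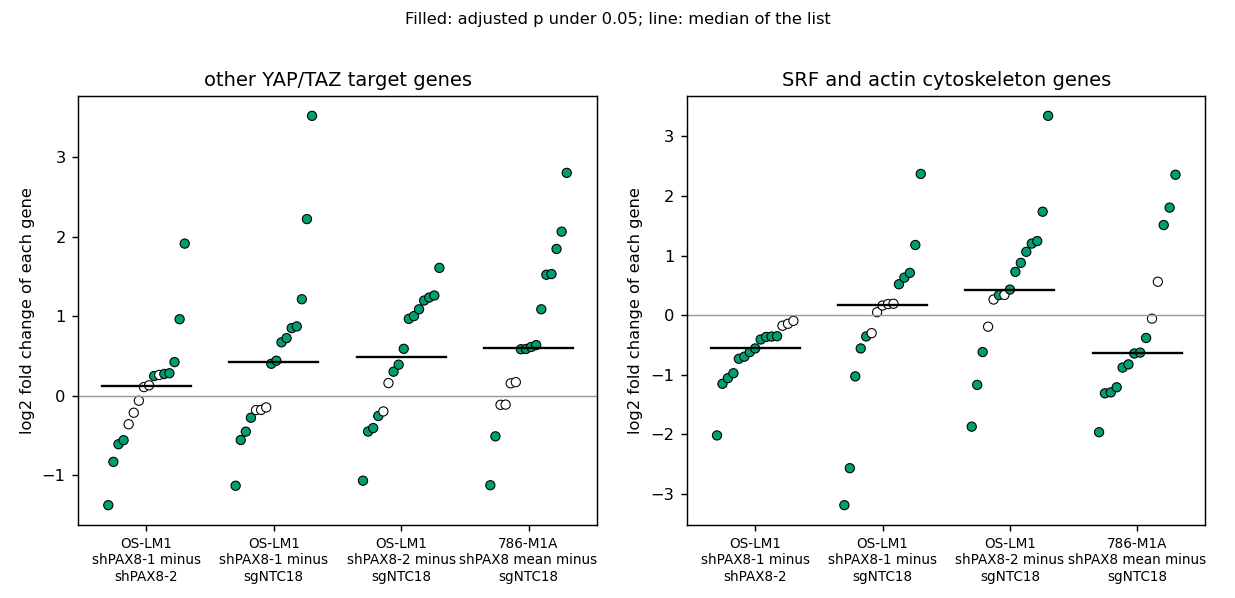
Log2 fold change of each gene of 2 lists (other YAP/TAZ targets; SRF and actin genes) in 4 comparisons; points are genes, filled where the adjusted p was under 0.05, and the bar is the list's median. The SRF and actin list lies below 0 throughout between shPAX8-1 and shPAX8-2 in OS-LM1 (median -0.56).

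The genes whose pattern over the 24 libraries was most like that of each target were found among 11849 genes by the root mean square difference of centred log2 CPM, as a description. For CYR61 they were MERTK (0.289), ZNF460 (0.315), CRIM1 (0.343), LATS2 (0.368) and RAB20 (0.387), against a value of 0.881 for CYR61 about its own mean. LATS2 is a member and CRIM1 is in the list of other targets. For ANKRD1, with 1.60 about its own mean, the nearest were SAT1 (0.714), MANF (0.758), KLHL15 (0.795), FAM117B (0.812) and RNF169 (0.843). SAT1 was at a mean of 30.5, 152 and 300 CPM in 786-M1A with sgNTC18, shPAX8-2 and shPAX8-1 (the order of ANKRD1) and at 43.4 to 44.3 CPM in OS-LM1, where the means of the constructs did not separate as they did for ANKRD1. For CTGF, with 2.24 about its own mean, the nearest were UNC5B (0.784), GPX3 (0.933), STON1 (0.933), WNT2B (0.936) and FAM198B (0.996). None of the other 9 members was among the 5 nearest genes of ANKRD1 or of CTGF.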

How the data were processed

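Libraries from 24 samples were analysed, 4 for each construct in each line. Per the labels RNA was captured by poly(A), with a KAPA stranded kit, whereas the study's methods name Lexogen kits. The authors mapped reads to hg38 with Bowtie2 and RSEM, as in the submitters' processing notes (versions not given in the sources used here), and deposited expected counts, without normalization, and TPM values per gene. The expected counts were rounded, filtered by filterByExpr and normalized by TMM in edgeR 4.0.16 (R 4.3.3). Groups were compared by edgeR's robust quasi-likelihood test over the 12 libraries of a line, the 8 sgNTC18 libraries or all 24, with Benjamini-Hochberg adjustment over all genes tested. A gene was called at an adjusted p under 0.05. SE was computed from the fold change and its F statistic. CPM values use TMM over 24 libraries, and log2 CPM a prior count of 2. TPM was used to compare genes. Counts limit the precision of low genes and cover counting error only.

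The members and lists were chosen with earlier results of these data known, and so was the rule for named genes. The rule names the 10 members, PAX8 and, per list and comparison, at most 3 genes with the largest rise and 3 with the largest fall at an adjusted p under 0.05, of which some are given here. A gene so named is also given in comparisons where it was not among the 3. LATS1 in 786-M1A, WWTR1-AS1, the seed and motif searches and the GC trend were chosen after the data were seen. GC content came from the longest GENCODE v44 transcript, matched for 96.1% of genes tested in OS-LM1 and 96.2% in 786-M1A. Alternatives were DESeq2 1.42.0, its size factors (RLE), no filter beyond 1 count, the replicate number as a block, each library left out, 1 fit of all libraries, and 786-M1A shPAX8-1 with replicates 1 and 2 or 3 and 4 alone. No 2 replicates agreed within sampling noise (chi-square per gene of 3.73 or more). The procedure was also run on simulated counts, which held neither the GC trends nor the replicate split of these data, and the outcome is not given here. A leukocyte marker is not reported here. Coordinates are of RefSeq GRCh38.p14.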

Additional observations from a re-analysis of the deposited data

Results flagged for a closer look

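Of the 60 sets of 4 libraries, 1 per member and group, 3 held a library far from the rest by Dixon's criterion, which chance meets in about 1 in 20 sets. These were YAP1 in OS-LM1 shPAX8-2 replicate 2 (119 CPM, against 104 to 105 CPM in the others), ANKRD1 in the same library (21.2 CPM, against 18.8 to 18.9 CPM) and AMOTL2 in 786-M1A shPAX8-2 replicate 2 (117 CPM, against 125 to 127 CPM).

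The difference between shPAX8 and sgNTC18 was unequal in the lines by the interaction term for 7 of the 9 members other than ANKRD1, against 58.7% of all genes tested. The value in OS-LM1 less that in 786-M1A, in log2 units, was 2.76 for CTGF, -1.26 for CYR61, 1.03 for WWTR1, 0.66 for AMOTL2, 0.60 for TEAD1, -0.43 for YAP1 and -0.32 for AJUBA. ANKRD1 was at -3.81, which is given with no test because it was chosen from the 786-M1A libraries that enter this value.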

How the results depend on the processing

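All counts of genes and members called stayed within 1.5 times under every alternative run. With the replicate block, genes called between the constructs in OS-LM1 went from 4378 to 3642 and the members called stayed at 6. Against sgNTC18 in OS-LM1 the block gave 10355 and 9846 genes, in 786-M1A 10298, between the lines 10367 and for the interaction 9072. Same-numbered libraries are not stated to be paired. The 24 correlations of their deviations ran from -0.60 to 0.54 with a mean of 0.0021, and 8 were over 0.1. Among the 4 libraries of another group of its line, a library correlated best with its own number in 13 of 48 cases. Apart from TEAD4 with shPAX8-2 in OS-LM1, no member's call changed with the block. DESeq2 and its size factors changed no member's call, and no scaling moved the median of all genes by over 0.1.

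With 1 library left out, 5 to 6 members were called between the constructs in OS-LM1 (3558 to 4885 genes), 7 to 9 and 7 to 8 against sgNTC18 there, 6 to 8 of 9 in 786-M1A and in the interaction, and 7 to 8 between the lines. Signs turned for small differences. CYR61 with shPAX8-1 in OS-LM1 was at -0.013 without sgNTC18 replicate 2, and at -0.0018 and -0.0026 without sgNTC18 replicate 4 or shPAX8-1 replicate 2, within a range up to 0.142 over the libraries left out. With the GC trend removed, shPAX8-2 against sgNTC18 in OS-LM1 gave -0.0043 for YAP1, 0.070 for TEAD4 and -0.055 for ANKRD1. The mean of the constructs in 786-M1A gave 0.047 for AMOTL2, and the lines gave -0.14 for YAP1 and -0.17 for TEAD1. Between the constructs in 786-M1A it gave -0.0075 for WWTR1, 0.12 for TEAD4 and 0.038 for AJUBA. That contrast was at -0.15 for CYR61 with shPAX8-1 replicates 3 and 4 alone, and at 0.024 for AJUBA with replicates 1 and 2 alone. Why the signs turned was not tested.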
